A study of Mus musculus with 10 samples.

Results

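Transcripts of 7 cytokine genes were followed in splenic type 2 conventional dendritic cells (cDC2, the antigen-presenting cells that prime helper T cells): the interleukin-1 (IL-1) family genes Il1a, Il1b, Il1rn and Il18, the tumour necrosis factor gene Tnf, and Il10 and Tgfb1. They were taken by symbol, and all 7 of the 7 listed genes were found among the 19938 genes measured, each with 1 probe set. RNA of sorted cDC2 was hybridised to 10 one-colour arrays. The groups were CD11c-Cre+ Notch2f/f mice (labelled Notch2-11cKO) injected intraperitoneally with 200000000 sheep red blood cells (SRBC) and analysed 24 hours later (3 arrays), untreated Notch2-11cKO mice (2 arrays), WT mice given SRBC in the same way (3 arrays) and untreated WT mice (2 arrays). CD11c-Cre acts in all cells that express CD11c, not in cDC2 alone, and ages, sexes and pooling of mice are not stated in the labels. All spleens were digested with collagenase and DNase before CD11c+ cells were enriched and sorted.

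IL-1α and IL-1β, the products of Il1a and Il1b, signal through a shared receptor, and the antagonist encoded by Il1rn occupies that receptor without signalling. IL-1β and IL-18 are made as precursors that inflammasome caspases cleave before release, so their transcript level does not show how much active cytokine leaves the cell. TNF is made on the cell surface and shed by the protease ADAM17. IL-10 restrains antigen-presenting cells, and TGF-β1, the product of Tgfb1, is secreted in a latent form that integrins release.

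Log2 levels of Il1a and Il1rn had the highest correlation of all cytokine pairs across the arrays, while Il1b and Tnf followed other courses. The sequences before the start sites of Il1a, Il1rn, Il1b and Tnf are therefore shown. Each is the 250 bases before the RefSeq start site on the gene's own strand, 5′ to 3′, with the AP-1 motif (TGANTCA) and the TATA box (TATAAA) in capitals.
Il1a (GRCm38.p6, chr2:129309973-129310222, minus strand): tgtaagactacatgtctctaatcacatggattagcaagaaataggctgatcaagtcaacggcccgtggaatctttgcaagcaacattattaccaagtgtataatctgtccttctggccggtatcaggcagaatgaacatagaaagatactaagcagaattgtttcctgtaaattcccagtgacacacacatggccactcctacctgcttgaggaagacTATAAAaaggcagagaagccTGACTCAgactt
Il1rn (GRCm38.p6, chr2:24336610-24336859, plus strand): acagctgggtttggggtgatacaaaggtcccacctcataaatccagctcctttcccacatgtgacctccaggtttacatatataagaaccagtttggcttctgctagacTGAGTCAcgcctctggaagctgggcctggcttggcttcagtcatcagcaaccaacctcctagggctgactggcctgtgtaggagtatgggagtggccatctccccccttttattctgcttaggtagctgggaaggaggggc
Il1b (GRCm38.p6, chr2:129371140-129371389, minus strand): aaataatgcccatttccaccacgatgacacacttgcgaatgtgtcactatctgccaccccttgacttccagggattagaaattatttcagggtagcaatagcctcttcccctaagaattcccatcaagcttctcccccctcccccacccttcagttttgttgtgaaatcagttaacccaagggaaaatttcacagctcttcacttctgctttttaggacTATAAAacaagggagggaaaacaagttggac
Tnf (GRCm38.p6, chr17:35202008-35202257, minus strand): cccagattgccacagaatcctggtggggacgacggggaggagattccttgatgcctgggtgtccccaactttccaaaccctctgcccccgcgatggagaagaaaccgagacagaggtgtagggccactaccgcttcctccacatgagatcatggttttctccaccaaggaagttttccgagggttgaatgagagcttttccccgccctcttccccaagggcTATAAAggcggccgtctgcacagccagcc
Il1rn has 3 start sites in RefSeq, and the most upstream one is shown. Windows were held for 6 of the 7 genes, and 11 motifs were searched on both strands in all 32851 RefSeq windows of this length. The AP-1 motif lay in 6.75% of all windows and, among the cytokines, in those of Il1a (12 bases before the start) and Il1rn (141 bases before it, in 1 of its 3 windows). TATAAA lay in 12.4% of windows, at 32, 31 and 29 bases before the start in Il1a, Il1b and Tnf and at 175 bases on the opposite strand in Il18. TGGGAA, the core bound by the Notch partner RBPJ, was in 21.6% of windows and in those of Il1a, Il1b and Il1rn. GAGGAA, the core of PU.1, was in 23.3% of windows and in those of Il1a and Tnf, and the NF-kB consensus, in 7.25% of windows, was found in Tgfb1. None of these matches overlapped another motif's. Motifs of C/EBP (TTGCNNAA), CREB (TGACGTCA), the antioxidant response (TGACNNNGC), the interferon-stimulated response, heat shock factor and SMAD (GTCTAGAC) had no match in these windows.

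The arrays had medians between 29.5 and 31.7 intensity units, and 4 of the 12 cDC2 markers had these levels: the class II gene H2-Ab1 averaged between 12.1 and 12.4 log2 units, the CD11c gene Itgax between 9.49 and 10.5, the CD172a gene Sirpa between 9.72 and 10.6 and the conventional dendritic cell factor Zbtb46 between 6.07 and 7.10 in the 4 groups. Other cDC2 markers were low in 1 genotype: Clec4a4 averaged 3.87 and 3.84 and Esam 4.17 and 4.06 in Notch2-11cKO SRBC and untreated Notch2-11cKO, while Clec10a averaged 3.79 in WT SRBC and 3.602 in untreated WT. Replicates correlated at Pearson r of 0.988 or more, except that Notch2-11cKO SRBC 3 (r 0.978 and 0.975 with its group) and WT SRBC 1 (r 0.971 and 0.971) stood apart. Notch2-11cKO SRBC 3 was the highest array of its group for 6 of the 7 cytokines and the highest of all 10 arrays for 5. WT SRBC 1 was the lowest of its group for 6 and the lowest of all arrays for 4. Comparisons are therefore given with all arrays and without these 2. They were left out because they differ from their groups, so the spread is smaller by construction, and differences between untreated groups keep their size. For most of the 7, Notch2-11cKO SRBC 3 was the highest and WT SRBC 1 the lowest of its group. Leaving both out then lowers the Notch2-11cKO response, raises the WT response and lowers the genotype difference after SRBC by construction. The genotype difference of the response is lowered too.

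**Figure D1:**
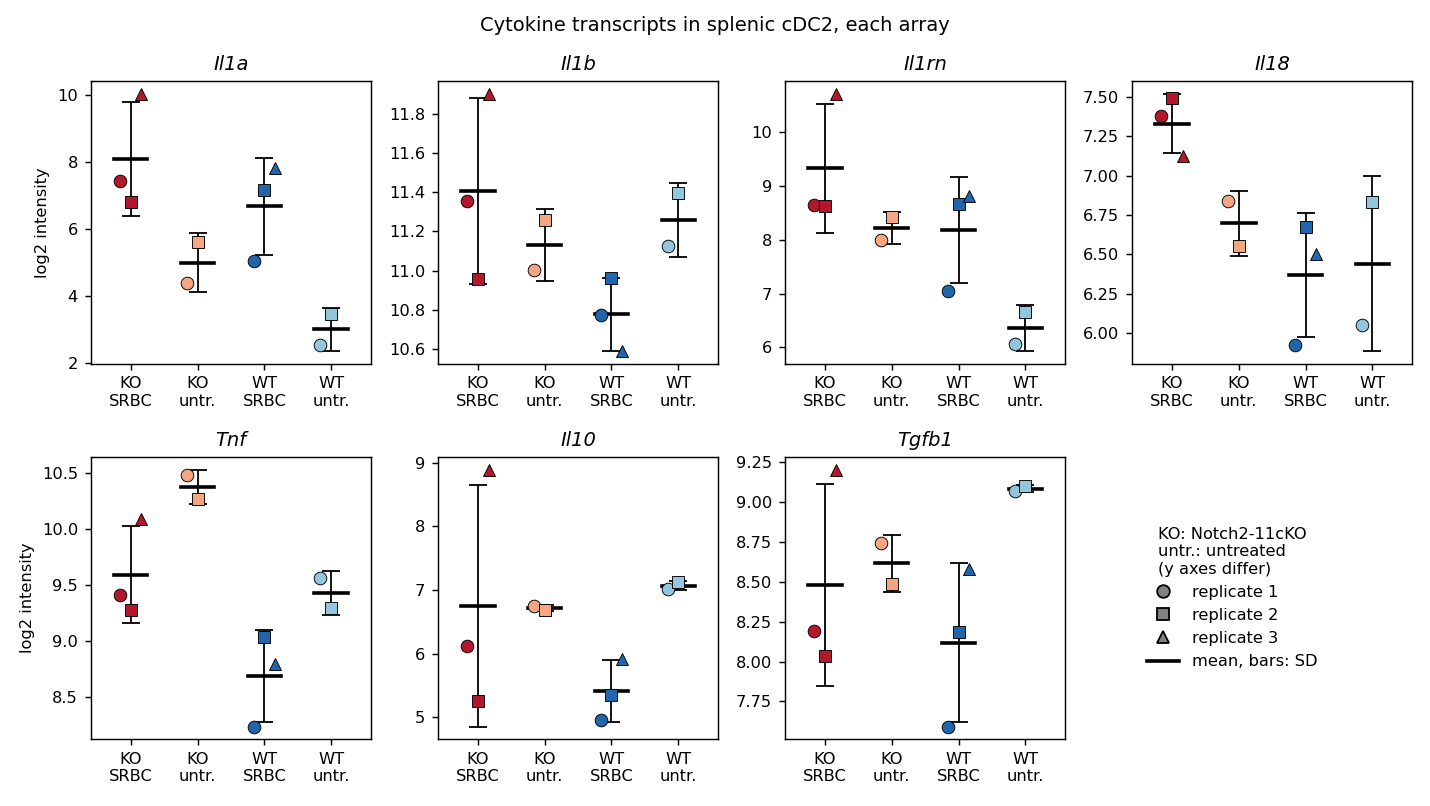
Log2 intensity of each cytokine gene (y axes, which differ between panels) on each array of the 4 groups (x axis), with group means and SD bars. Il1a spans from 2.56 to 10.02 and Il1b from 10.6 to 11.9, and Notch2-11cKO SRBC 3, the dark red triangle, tops its group in every panel but that of Il18.

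With all 10 arrays, 1 of the 35 tests passed an adjusted p of 0.05: Il18 was higher in Notch2-11cKO than in WT cDC2 after SRBC. Il1a and Il1rn had higher means after SRBC in both genotypes and in Notch2-11cKO under both treatments, and Tnf had lower means after SRBC in both genotypes and higher means in Notch2-11cKO under both treatments. Without the 2 arrays that stood apart, the genotype difference after SRBC changed sign for Il1a (-0.36) and Il1rn (-0.10) but not for Tnf (0.43). Those arrays held the highest Notch2-11cKO SRBC and the lowest WT SRBC value of each of these genes, so the difference falls by construction. Il10 and Tgfb1 had lower means after SRBC in WT cDC2, and Il1b stayed within 1.31 log2 units. Values are log2 differences ± the standard error (SE) of one limma fit over 19938 genes, with Benjamini-Hochberg adjusted p over that whole set. In the SRBC response of Notch2-11cKO none of the 7 passed, against 0.306% of all genes, and 4 had groups that did not overlap, against 28.3%. In that of WT none passed (3.79% of all genes) and 6 did not overlap (33.5%). Between untreated genotypes none passed (5.11%) and 5 did not overlap (48.8%). Between genotypes after SRBC 1 passed (5.32%) and 2 did not overlap (20.3%). None passed in the genotype difference of the response (0.0201%). Il18 was thus the one cytokine called in these comparisons, and separated groups were common among all genes too. Unadjusted p was below 0.05 for 2 higher genes (5.24% of all genes) and 1 lower gene (4.76%) in the Notch2-11cKO response, 4 genes in the WT response (16.8%), 2 between untreated genotypes (14.6%), 3 between genotypes after SRBC (17.4%) and 1 in the genotype difference (6.47%). Without the 2 arrays that stood apart, 2 genes passed in the Notch2-11cKO response (2.00% of all genes), 4 in the WT response (11.5%), 3 between untreated genotypes, all higher in Notch2-11cKO (5.60% of all genes were higher), 1 between genotypes after SRBC (11.9%) and 1 in the genotype difference (3.03%). The labels leave it unstated whether each replicate is its own mouse, and p-values here measure only the spread between these samples, which may be technical.

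**Figure D2:**
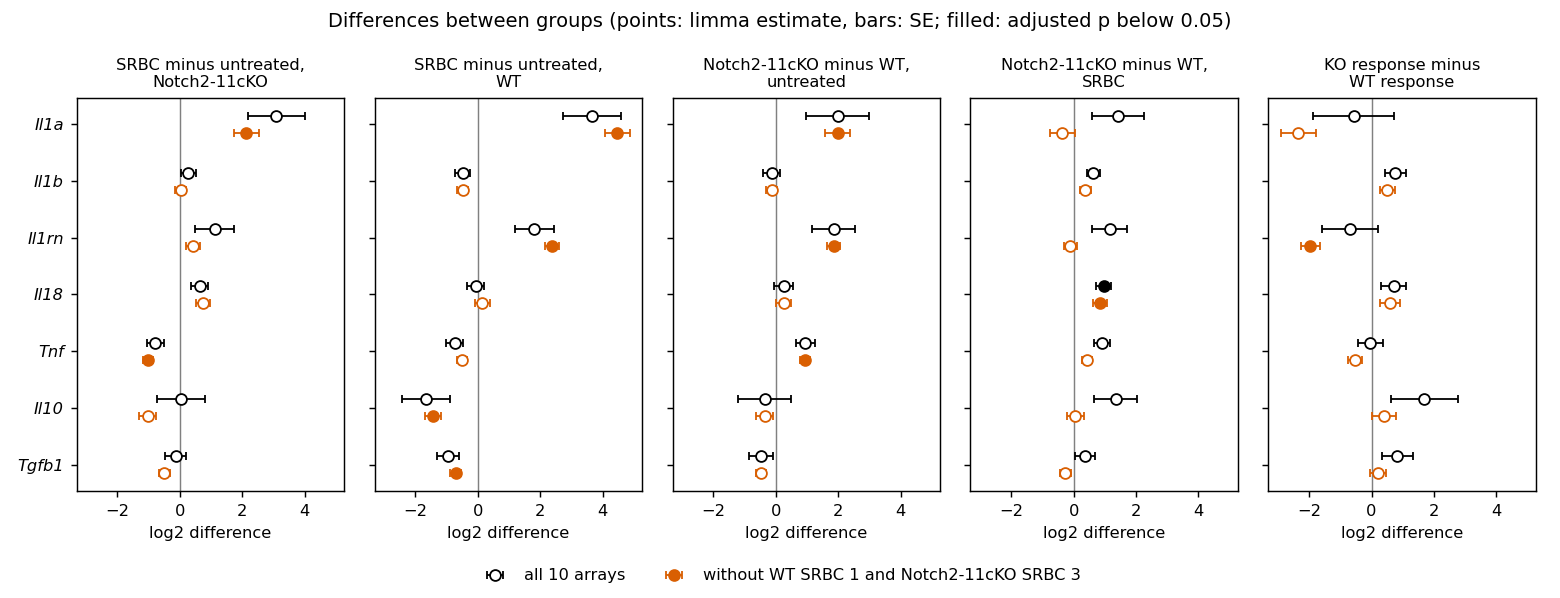
Log2 difference (x axis) of each cytokine gene (rows) in the 5 comparisons, as limma estimates with SE bars, with all 10 arrays (black) and without WT SRBC 1 and Notch2-11cKO SRBC 3 (orange); filled points have an adjusted p below 0.05. Il18 after SRBC is the one filled black point, and the WT responses of Il1a and Il1rn are 4.47 and 2.38 without the 2 arrays.

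Il1a, encoding an agonist that is active without cleavage, varied most of the 7, over 7.46 log2 units. Its log2 intensity was 7.44, 6.81 and 10.02 in Notch2-11cKO SRBC, against 4.38 and 5.62 in untreated Notch2-11cKO. It was 5.05, 7.16 and 7.81 in WT SRBC, against 2.56 and 3.47 in untreated WT. Both untreated WT arrays (5.9 and 11.1 intensity units) and untreated Notch2-11cKO 1 (20.8) lay below every array median (29.5 to 31.7). The size of folds and ranges that start from them is therefore uncertain. Every SRBC array lay above every untreated array of its own genotype, and the lowest SRBC array, WT SRBC 1, lay between both untreated Notch2-11cKO arrays. Group means ran from Notch2-11cKO SRBC (8.09 ± 1.70, SD) through WT SRBC (6.67 ± 1.44) and untreated Notch2-11cKO (4.997 ± 0.88) to untreated WT (3.01 ± 0.64), and only the last neighbours in that order did not overlap. The Notch2-11cKO response was 3.09 ± 0.92 (8.52-fold, adjusted p = 0.23), and without WT SRBC 1 and Notch2-11cKO SRBC 3 it was 2.12 ± 0.40 (adjusted p = 0.0242). The WT response was 3.66 ± 0.92 (12.6-fold, 95% interval 1.64 to 5.68, adjusted p = 0.0526, n = 3 and 2 in limma's fit), and it passed without WT SRBC 1 (4.47, adjusted p = 0.0101) and without Notch2-11cKO SRBC 3 (3.66, adjusted p = 0.0106). In both genotypes the estimate was above 0 with and without those arrays. Untreated Notch2-11cKO cells were higher than untreated WT cells by 1.99 ± 1.01 (adjusted p = 0.418), which passed without both SRBC arrays (adjusted p = 0.00771). After SRBC the genotypes overlapped (1.42 ± 0.82, adjusted p = 0.428), and the difference turned to -0.36 ± 0.40 without both arrays (adjusted p = 0.674). The responses of the genotypes differed by -0.57 ± 1.30 (95% interval -3.42 to 2.29, adjusted p = 0.984).

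Il1b, encoding the agonist that caspase-1 cleaves, stayed within 1.31 log2 units on the 10 arrays. Il1b had log2 intensities of 11.4, 11.0 and 11.9 in Notch2-11cKO SRBC, against 11.0 and 11.3 in untreated Notch2-11cKO. They were 10.8, 11.0 and 10.6 in WT SRBC, against 11.1 and 11.4 in untreated WT. WT SRBC was the lowest group, below every array of both untreated groups, whereas the SRBC and untreated arrays of Notch2-11cKO overlapped. Group means were 11.4 ± 0.47 in Notch2-11cKO SRBC, 11.1 ± 0.18 in untreated Notch2-11cKO, 10.8 ± 0.19 in WT SRBC and 11.3 ± 0.19 in untreated WT, and in order of level all neighbours but the lowest pair overlapped. The Notch2-11cKO response was 0.27 ± 0.24 (adjusted p = 0.767) and the WT response -0.48 ± 0.24 (adjusted p = 0.347). Their difference, 0.76 ± 0.34 (95% interval 0.01 to 1.50), had an adjusted p of 0.766. Without both arrays that stood apart the Notch2-11cKO response was 0.026 ± 0.18 (adjusted p = 0.964), as it was without Notch2-11cKO SRBC 3 alone (0.026). After SRBC the genotypes differed by 0.63 ± 0.21 (adjusted p = 0.136). That difference was 0.38 without Notch2-11cKO SRBC 3 and 0.38 ± 0.18 without both arrays (adjusted p = 0.223), while without Notch2-11cKO SRBC 2, the lowest array of its group, it was 0.85 and passed (adjusted p = 0.036). The difference of the responses was 0.51 ± 0.25 without both arrays (adjusted p = 0.366). Untreated genotypes differed by -0.13 ± 0.26 (95% interval -0.71 to 0.45).

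Il1rn, the receptor antagonist gene, followed Il1a. Il1rn had log2 intensities of 8.64, 8.63 and 10.7 in Notch2-11cKO SRBC, against 8.00 and 8.42 in untreated Notch2-11cKO. They were 7.04, 8.66 and 8.82 in WT SRBC, against 6.06 and 6.66 in untreated WT. Untreated Notch2-11cKO arrays lay above both untreated WT arrays and below 2 of the 3 WT SRBC arrays. Group means were 9.33 ± 1.20 in Notch2-11cKO SRBC, 8.21 ± 0.30 in untreated Notch2-11cKO, 8.18 ± 0.98 in WT SRBC and 6.36 ± 0.43 in untreated WT, and the middle pair overlapped. The Notch2-11cKO response was 1.12 ± 0.63 (adjusted p = 0.616), and 0.42 ± 0.22 without both arrays (adjusted p = 0.387). No array left out made the Notch2-11cKO response pass. The WT response was 1.82 ± 0.63 (3.52-fold, adjusted p = 0.156), and it passed without WT SRBC 1 (2.38, adjusted p = 0.0307) and without Notch2-11cKO SRBC 3 (1.82, adjusted p = 0.0391). Untreated genotypes differed by 1.85 ± 0.69 (3.62-fold, adjusted p = 0.206), which passed without Notch2-11cKO SRBC 3 (adjusted p = 0.0481) and without both arrays (1.85 ± 0.22, adjusted p = 0.000173). After SRBC the difference was 1.15 ± 0.57 with all arrays (adjusted p = 0.329) and -0.10 ± 0.22 without both (adjusted p = 0.842). The genotype difference of the response was -0.70 ± 0.89 (adjusted p = 0.969), and -1.96 ± 0.30 without both arrays (adjusted p = 0.00667), the one cytokine that passed there. Both removals, of the highest Notch2-11cKO SRBC value (10.7) and the lowest WT SRBC value (7.04), lower this estimate by construction. That p therefore cannot decide whether the response depends on genotype.

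Across the 10 arrays Il1a and Il1rn had a Pearson r of 0.951, the highest of the 21 pairs, and Il10 and Tgfb1 had the next highest, 0.883. Il1a correlated little with Il1b (0.264), Tnf (-0.01) or Tgfb1 (-0.11). These correlations describe arrays that share groups and, in Notch2-11cKO SRBC 3, 1 array that is extreme for both genes of each pair.

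**Figure D3:**
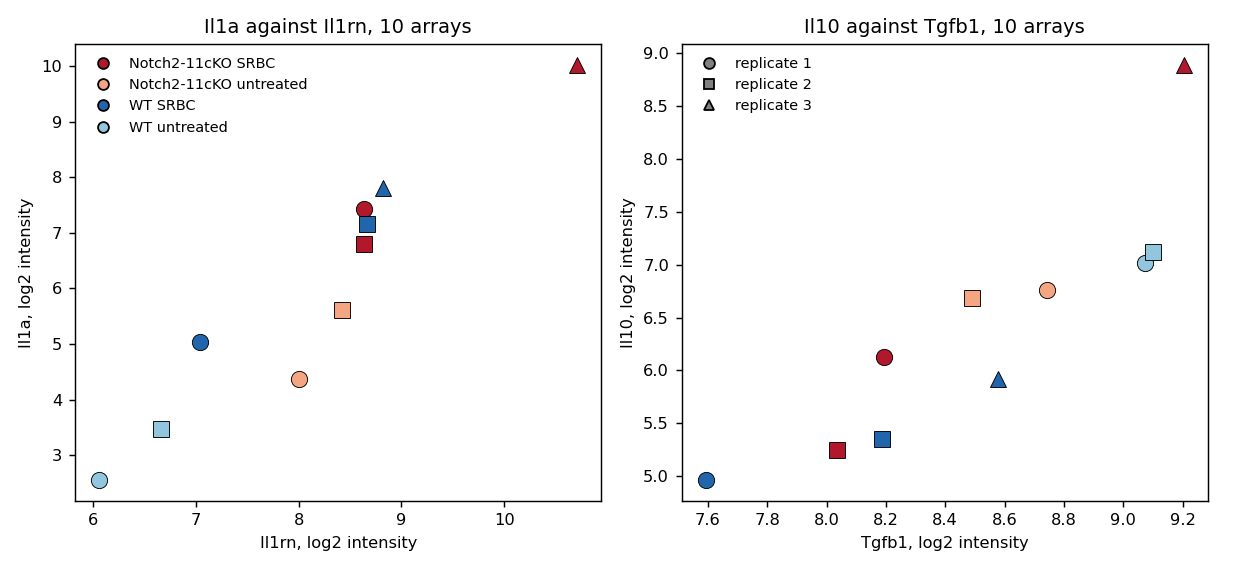
Log2 intensity of Il1a against Il1rn (left) and of Il10 against Tgfb1 (right) on the 10 arrays, coloured by group with the marker shape giving the replicate. The points rise together in both panels (Pearson r 0.951 and 0.883), with Notch2-11cKO SRBC 3 at the upper right of each.

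Il18, whose product drives interferon-gamma from T and NK cells, was the one of the 7 that passed the test. Its log2 intensity was 7.38, 7.49 and 7.12 in Notch2-11cKO SRBC, against 5.93, 6.67 and 6.50 in WT SRBC. It was 6.84 and 6.55 in untreated Notch2-11cKO, against 6.05 and 6.83 in untreated WT. All 3 Notch2-11cKO SRBC arrays lay above all other arrays, and the ranges of the other 3 groups overlapped. Group means were 7.33 ± 0.19 in Notch2-11cKO SRBC, 6.70 ± 0.20 in untreated Notch2-11cKO, 6.37 ± 0.39 in WT SRBC and 6.44 ± 0.55 in untreated WT. After SRBC the genotypes differed by 0.96 ± 0.25 (1.94-fold, 95% interval 0.42 to 1.50, adjusted p = 0.0464, n = 3 and 3 in limma's fit). The call held without both arrays that stood apart (0.84 ± 0.23, adjusted p = 0.0384). It ended when single arrays were left out, namely Notch2-11cKO SRBC 1 (adjusted p = 0.133) or 2 (0.147), Notch2-11cKO untreated 1 (0.0676) or 2 (0.0681), and WT SRBC 1 (0.0977), 2 (0.0547) or 3 (0.0869), with differences between 0.74 and 1.11 throughout. It also ended with quantile normalization (adjusted p = 0.059) and with only those groups in the fit (adjusted p = 0.067). Neither response of Il18 nor their difference passed. The Notch2-11cKO response was 0.63 ± 0.27 (adjusted p = 0.476) and the WT response -0.07 ± 0.27 (95% interval -0.68 to 0.53), and their difference was 0.70 ± 0.39 (adjusted p = 0.854). Untreated genotypes differed by 0.25 ± 0.30 (adjusted p = 0.836).

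Tnf was highest in untreated Notch2-11cKO cells. Tnf had log2 intensities of 9.41, 9.28 and 10.1 in Notch2-11cKO SRBC, against 10.5 and 10.3 in untreated Notch2-11cKO. They were 8.24, 9.03 and 8.79 in WT SRBC, against 9.57 and 9.29 in untreated WT. In each genotype every SRBC array lay below every untreated array, and under each treatment every Notch2-11cKO array lay above every WT array. Group means were 9.59 ± 0.43 in Notch2-11cKO SRBC, 10.4 ± 0.15 in untreated Notch2-11cKO, 8.69 ± 0.41 in WT SRBC and 9.43 ± 0.19 in untreated WT, and of neighbours in level only Notch2-11cKO SRBC and untreated WT overlapped. The response was -0.78 ± 0.28 in Notch2-11cKO (1.72-fold lower, adjusted p = 0.355) and -0.74 ± 0.28 in WT (1.67-fold lower, adjusted p = 0.194), with a difference of -0.04 ± 0.40 (95% interval -0.91 to 0.83). Without both arrays that stood apart the response was -1.03 ± 0.16 in Notch2-11cKO (adjusted p = 0.0104) and -0.52 ± 0.16 in WT (adjusted p = 0.0618), with a difference of -0.52 ± 0.23 (adjusted p = 0.297). The genotypes differed by 0.95 ± 0.31 without treatment (1.93-fold, adjusted p = 0.127), which passed without WT SRBC 1 (adjusted p = 0.0491), and by 0.90 ± 0.25 after SRBC (1.87-fold, adjusted p = 0.0643). The last of these passed with quantile normalization (adjusted p = 0.0441). Without both arrays the untreated difference was 0.95 ± 0.16 (adjusted p = 0.00246), while the difference after SRBC was 0.43 ± 0.16 (adjusted p = 0.119).

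Il10, the gene of the anti-inflammatory cytokine, was even between the untreated replicates and most uneven in Notch2-11cKO SRBC. Il10 had log2 intensities of 6.13, 5.25 and 8.89 in Notch2-11cKO SRBC, against 6.76 and 6.69 in untreated Notch2-11cKO. They were 4.96, 5.36 and 5.92 in WT SRBC, against 7.02 and 7.12 in untreated WT. WT SRBC lay below both untreated groups, and so did 2 of the 3 Notch2-11cKO SRBC arrays, while the other was the highest of all 10. Group means were 6.76 ± 1.90 in Notch2-11cKO SRBC, 6.72 ± 0.05 in untreated Notch2-11cKO, 5.41 ± 0.48 in WT SRBC and 7.07 ± 0.07 in untreated WT. The Notch2-11cKO response was 0.04 ± 0.77 with all arrays (95% interval -1.65 to 1.72, adjusted p = 0.994) and -1.03 without Notch2-11cKO SRBC 3 (adjusted p = 0.275). A single array thus set the sign of the Notch2-11cKO estimate. The WT response was -1.66 ± 0.77 (3.16-fold lower, adjusted p = 0.307), and it passed without Notch2-11cKO SRBC 3 (-1.66, adjusted p = 0.00915) and without both arrays (-1.43 ± 0.27, adjusted p = 0.00479). The genotype difference was -0.35 ± 0.84 in untreated cells (adjusted p = 0.942). After SRBC it was 1.34 ± 0.69 (adjusted p = 0.352), and 0.05 ± 0.27 without both arrays.

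Tgfb1, encoding TGF-β1, was highest on average in untreated WT cells. Its log2 intensity was 8.19, 8.04 and 9.20 in Notch2-11cKO SRBC, against 8.74 and 8.49 in untreated Notch2-11cKO. It was 7.59, 8.19 and 8.58 in WT SRBC, against 9.07 and 9.10 in untreated WT. All WT SRBC arrays lay below both untreated WT arrays. Group means were 8.48 ± 0.63 in Notch2-11cKO SRBC, 8.62 ± 0.18 in untreated Notch2-11cKO, 8.12 ± 0.50 in WT SRBC and 9.09 ± 0.02 in untreated WT, and of neighbours in level only both untreated groups did not overlap. The Notch2-11cKO response was -0.14 ± 0.35 (95% interval -0.91 to 0.63), and -0.50 ± 0.17 without both arrays that stood apart (adjusted p = 0.195). The WT response was -0.97 ± 0.35 (1.95-fold lower, adjusted p = 0.174), and -0.70 ± 0.17 without both arrays (adjusted p = 0.0235). Notch2-11cKO differed from WT by -0.47 ± 0.38 in untreated cells (adjusted p = 0.704) and by 0.36 ± 0.31 after SRBC (adjusted p = 0.64).

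Immediate-early and dissociation stress genes, which tissue digestion is known to induce, moved with the treatment. The mean of 25 of them was 9.26, 8.998 and 8.42 log2 units in Notch2-11cKO SRBC, against 9.77 and 9.87 in untreated Notch2-11cKO. It was 8.86, 8.39 and 8.44 in WT SRBC, against 9.996 and 9.86 in untreated WT. The SRBC and untreated arrays did not overlap, and the arrays that stood apart were the lowest of Notch2-11cKO SRBC and the highest of WT SRBC. Of the 25 genes, 3 fell in the Notch2-11cKO response (0.306% of all genes were called) and 9 in the WT response (3.79%). Among them were Hsph1 (-3.01 ± 0.25 and -4.69 ± 0.25) and Ier2 (-1.50 ± 0.25 and -1.69 ± 0.25). With this mean as a covariate the responses of Il1a were -0.48 in Notch2-11cKO and -1.60 in WT, and those of Il1rn were -1.58 and -2.14, with adjusted p between 0.153 and 0.85. With it all 7 cytokines passed between genotypes after SRBC, all higher in Notch2-11cKO, from 0.83 (Tgfb1 and Il1b) to 2.68 (Il1a), against 7.13% of all genes called in that fit. The covariate is fitted on the spread within groups, where the 2 arrays that stood apart were extremes. Without both arrays and without the covariate, the differences were 0.84 (Il18), 0.43 (Tnf), 0.38 (Il1b), 0.05 (Il10), -0.10 (Il1rn), -0.27 (Tgfb1) and -0.36 (Il1a). The covariate was not tested without these arrays. Since the score separates the treatments, a treatment effect and a difference in stress response cannot be told apart for the SRBC responses.

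Markers of other cells moved with genotype, and those of macrophages also with SRBC in WT. The 13 monocyte markers had a mean between 8.10 and 8.27 log2 units in Notch2-11cKO arrays, against 6.46 to 6.67 in WT arrays, and 7 of them were higher in Notch2-11cKO under each treatment (1, Treml4, was lower without treatment). Of 15 macrophage markers 8 were higher without treatment and 10 after SRBC, and the list mean lay between 7.26 and 7.72 in Notch2-11cKO, against 6.27 to 6.84 in WT SRBC and 5.80 to 5.95 in untreated WT. In the WT response 3 of the 15 rose and none fell (median 0.60), namely C1qc (1.72 ± 0.31), Spic (2.11 ± 0.42) and Vcam1 (1.75 ± 0.25). Without both arrays that stood apart 8 rose and 1 fell, with 11.5% of all genes called. WT SRBC 1 was the lowest WT SRBC array for this list, as it was for Il1a and Il1rn. Notch2-11cKO SRBC 3 was the lowest of its group for this list (7.42, against 7.72 and 7.45) but the highest of all arrays for Il1a and Il1rn. In the Notch2-11cKO response none of the 15 passed. The 12 neutrophil markers had means between 4.15 and 5.02 in Notch2-11cKO, against 4.07 to 4.51 in WT. S100a8 rose after SRBC by 3.07 ± 0.46 in Notch2-11cKO (adjusted p = 0.0263) and by 2.85 ± 0.46 in WT (adjusted p = 0.00658). The granulocyte genes Ly6g (group means 2.76 to 3.05), Retnlg (3.48 to 3.99) and Cxcr2 (3.19 to 3.38) stayed low in all groups. Csf3r averaged 6.24 in untreated Notch2-11cKO and 5.51 in Notch2-11cKO SRBC, against 5.21 in untreated WT and 4.57 in WT SRBC. Of the 12 markers 1 was higher in Notch2-11cKO without treatment (5.11% of all genes called) and 2 after SRBC (5.32%), and none was lower. S100a9 averaged 7.98 in Notch2-11cKO SRBC, against 6.10 in untreated Notch2-11cKO, and 6.93 in WT SRBC, against 4.43 in untreated WT, and its responses of 1.88 ± 0.68 (adjusted p = 0.36) and 2.50 ± 0.68 (adjusted p = 0.0684) did not pass. In summed intensity, monocyte markers ranged from 15843 to 20592 units in Notch2-11cKO, against 3416 to 6362 in WT, macrophage markers from 5372 to 7031, against 2157 to 3485, and neutrophil markers from 263 to 1170, against 225 to 503. In these bulk samples fewer cells of a type and less RNA per cell cannot be told apart. Nor can other cells be told from cDC2 that express these genes. The part of either in the levels of Il18, Tnf, Il1a and Il1rn was not tested. Of 12 cDC2 markers 2 were higher and 4 lower in untreated Notch2-11cKO than in untreated WT, and 2 were higher and 3 lower after SRBC. Of 10 cDC1 markers 4 were higher and 1 lower without treatment and 3 higher and 2 lower after SRBC, and of 8 plasmacytoid dendritic cell markers 2 and 3 were higher. In the WT response 3 of the 12 cDC2 markers fell and none rose (median -0.61). There 3 of the 10 cDC1 markers rose and 1 fell (median 0.39), and 1 of the 13 monocyte markers rose. In the Notch2-11cKO response 2 cDC2 markers fell and no cDC1 marker passed. B cell, T cell, NK cell, mast cell and erythroid lists had means below 5.25 on every array. Single members averaged more, such as Il7r (9.55) and Klrk1 (7.62) in Notch2-11cKO SRBC, Cd79b (7.19) in untreated Notch2-11cKO and Cd5 (7.11) in untreated WT. In the WT response 1 of 10 T cell and 1 of 10 NK cell markers rose, with 3.79% of all genes called.

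**Figure D4:**
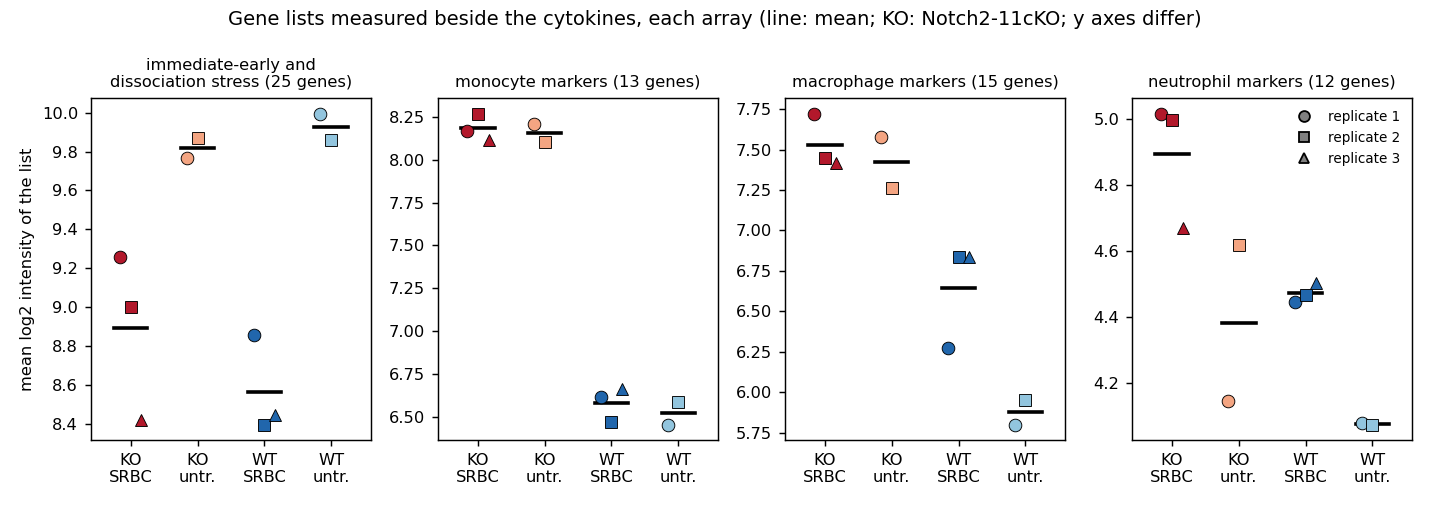
Mean log2 intensity (y axes, which differ between panels) of the stress list and of monocyte, macrophage and neutrophil markers on each array of the 4 groups (x axis). The stress list lies between 9.77 and 9.996 in untreated arrays and between 8.39 and 9.26 after SRBC, and the monocyte list between 8.10 and 8.27 in Notch2-11cKO and 6.46 and 6.67 in WT.

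Genes that process and sense these cytokines were followed in 6 lists. Over all genes 5.11% were called between untreated genotypes, 5.32% between genotypes after SRBC, 3.79% in the WT response and 0.306% in the Notch2-11cKO response. Of 16 genes of the inflammasome and cytokine cleavage, 2 were higher and 1 lower in untreated Notch2-11cKO than in untreated WT (median 0.29, against -0.02 over all genes), and 4 were higher after SRBC (median 0.62, against -0.02). Casp4, the caspase that senses cytosolic lipopolysaccharide, was higher by 1.77 ± 0.23 without treatment (adjusted p = 0.000844) and by 1.09 ± 0.19 after SRBC (adjusted p = 0.00572). P2rx7, the ATP-gated channel that triggers the NLRP3 inflammasome, was higher by 1.51 ± 0.26 and 1.08 ± 0.21. Naip2, a sensor of bacterial secretion systems in mice, was higher after SRBC by 1.37 ± 0.18 and Casp8 by 0.77 ± 0.18. Nlrc4, the partner of the Naip sensors, was lower in untreated Notch2-11cKO (-0.98 ± 0.18, adjusted p = 0.00896). In the WT response Casp4 rose (0.87 ± 0.21, adjusted p = 0.045) and the sensor gene Nlrp1b fell (-1.15 ± 0.21, adjusted p = 0.0117), with none in the Notch2-11cKO response. Casp1 itself did not pass, with 0.24 ± 0.21 between untreated genotypes and 0.53 ± 0.17 after SRBC (adjusted p = 0.119).

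Of 14 measured IL-1 and IL-18 receptor and signalling genes, 2 were higher and 1 lower in untreated Notch2-11cKO (median 0.15, with 5.11% of all genes called). After SRBC 2 were higher and 2 lower (median 0.10, with 5.32% of all genes called), and none passed in either response. The decoy receptor gene Il1r2 was lower in Notch2-11cKO, with log2 differences of -2.33 ± 0.39 without treatment (adjusted p = 0.00442) and -2.31 ± 0.32 after SRBC (adjusted p = 0.00132). Irak3, an inhibitor of receptor signalling, was higher by 1.53 ± 0.28 and 1.75 ± 0.23, and Il1rap, the shared accessory chain, was higher without treatment (0.85 ± 0.19). After SRBC Il18r1, the IL-18 receptor chain, was higher (0.55 ± 0.12), though its means were low (4.05, against 3.50 in WT SRBC). The adaptor gene Tab2 was lower (-0.73 ± 0.18). Of 6 other IL-1 family ligand and decoy genes, among them Il33 and the IL-18 binding protein gene Il18bp, none passed in any comparison of limma's fit, and unadjusted p was below 0.05 for 2 in the WT response and for 1 between genotypes after SRBC.

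Among 18 genes of TNF shedding, mRNA decay, locus and receptors, the sheddase gene Adam17 was higher in untreated Notch2-11cKO (0.86 ± 0.22, adjusted p = 0.0459). It was the 1 of 18 called there (median 0.04), and none passed between genotypes after SRBC (median -0.00). Over all genes 5.11% were called between untreated genotypes, 5.32% between genotypes after SRBC, 0.306% in the Notch2-11cKO response and 3.79% in the WT response. Zfp36, whose product degrades Tnf mRNA, fell in the Notch2-11cKO response (-0.96 ± 0.17, adjusted p = 0.0462), and its relative Zfp36l2 (-1.62 ± 0.37) and the neighbour of Tnf, Ltb (-1.64 ± 0.40), fell in WT. Of 16 genes of IL-10 reception and control, Socs3, a feedback inhibitor that IL-10 induces, was higher in Notch2-11cKO without treatment (2.00 ± 0.24, adjusted p = 0.000513; 1 of 16, median 0.28) and after SRBC (1.49 ± 0.20; 1 of 16, median -0.01), and it is also a member of the stress list. The CREB-family gene Crem rose after SRBC in Notch2-11cKO (1.73 ± 0.31, adjusted p = 0.0457) and in WT (2.13 ± 0.31, adjusted p = 0.00344). In WT Nfil3 also rose (1.28 ± 0.21), and the receptor gene Il10ra fell (-1.47 ± 0.36, adjusted p = 0.0465). The single genes called between genotypes in the TNF and IL-10 lists were near the shares over all genes. Of 30 TGF-β genes 5 were higher and 1 lower in untreated Notch2-11cKO (median 0.08, with 5.11% of all genes called). After SRBC 6 were higher (median 0.13, with 5.32% of all genes called). Eng, a co-receptor, was higher by 1.00 ± 0.15 and 0.73 ± 0.12, and after SRBC so were the receptor gene Acvrl1 (0.86 ± 0.16), Itgb8, an integrin that activates latent TGF-β (1.59 ± 0.29), and the protease gene Mmp14 (1.65 ± 0.32). In untreated cells Smurf1 (1.18 ± 0.21) and Tgif1 (0.97 ± 0.21) were higher and Smad7, the inhibitor that TGF-β induces, was lower (-1.78 ± 0.27, adjusted p = 0.00272). Smad7 also fell in the WT response (-1.27 ± 0.25, adjusted p = 0.0184). Without both arrays that stood apart more genes of 4 lists passed after SRBC between genotypes: 9 of 16 inflammasome genes were higher and 2 lower, 4 of 18 TNF genes higher and 2 lower, 3 of 16 IL-10 genes higher and 2 lower, and 7 of 30 TGF-β genes higher and 3 lower. The share of all genes called in that comparison was 11.9% without both arrays and 5.32% with all arrays.

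By Pearson r over the 10 arrays among 4225 brighter and variable genes, the genes most like Il1a were the thioredoxin reductase gene Txnrd1 (0.985), Gprc5a (0.983) and Eid3 (0.974). Those most like Il1rn were the integrin gene Itga5 (0.975), Ptpmt1 (0.97) and again Eid3 (0.969). Il1b was most like the iron transporter gene Slc11a2 (0.895), Atp6v1a (0.889) and Parp14 (0.872), and Parp14 (0.936) was also most like Il10, followed by Zcchc2 (0.93) and Oser1 (0.905). Tgfb1 was most like Oser1 (0.966), Fig4 (0.933) and Aga (0.913), Tnf like Capns1 (0.974), Fli1 (0.954) and Grina (0.952), and Il18 like Hcst (0.911), Rxylt1 (0.906) and Gng12 (0.904). These are descriptions over arrays that share 4 groups.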

How the data were processed

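Sorted splenic cDC2 of 4 groups were measured on 10 arrays. RNA was labelled with the Ambion WT Expression kit, per the labels' protocols. The authors deposited linear intensity values whose medians were similar on all arrays, with normalization steps not given in the sources used here. Values of the 28853 probe sets ran between 2.57 and 11436.78 with no detection calls, so no gene was called above background. Of the probe sets 21789 listed 1 gene symbol, 1621 several and 5443 none; symbols were updated through gene IDs from RefSeq (GRCm38.p6), and the brightest probe set stood for each of 19938 genes. Log2 values were fitted with limma 3.58.1 in R 4.3.3 (a mean per group, eBayes with a trend, 6 residual and 5.25 prior degrees of freedom), with 5 two-sided comparisons adjusted over all genes and a threshold of 0.05. Group errors are SD, n = 2 or 3, and array number limits the precision. The members and lists were chosen with earlier results of these data known. Of 249 list entries 236 were measured. Named genes were the 7 cytokines, some listed cell type markers and up to 4 called genes with the smallest p in each pathway list. Also named were the 3 genes most like each cytokine, at or above the median level with a range of at least 1 log2 unit. Casp1, Hsph1, Ier2, Treml4, S100a8, S100a9, Csf3r, C1qc, Spic, Vcam1, Il7r, Klrk1, Cd79b and Cd5 were named after their values were seen. The fit was run on simulated data with independent noise and no outlying arrays, so that run does not cover the 2 arrays that stood apart. Alternatives covered probe set summary, dim genes, normalization, offset, variance model, array weights, groups fitted, replicate block, stress covariate, 2-fold threshold and single arrays. Python 3.11.15 and matplotlib 3.10.9 drew the plots. Promoter windows are from RefSeq.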

Additional observations from a re-analysis of the deposited data

How the results depend on the processing

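Of 798 recomputed cytokine values 709 kept their direction and side of the threshold, 44 passed that had not, 10 no longer passed and 35 changed sign. In the Notch2-11cKO response 2 cytokines passed without both arrays that stood apart, where 398 of all genes passed, against 61 with all arrays. In the WT response 1 passed among genes above the median level and with the stress covariate, 2 with array weights or only the groups compared, and 4 without both arrays. Over all genes 920, 60, 1886, 559 and 2300 passed in these settings in that order, against 756 in the main fit. Between untreated genotypes 2 passed with array weights or the covariate and 3 with only the groups compared or without both arrays. Over all genes 1822, 1370, 1966 and 1996 passed in these settings in that order, against 1019 in the main fit. After SRBC 2 passed among brighter genes, 7 with the covariate and 0 with only the groups compared or a 2-fold minimum; with quantile normalization Tnf passed (adjusted p = 0.0441) in place of Il18 (0.059). Over all genes 1130 passed there among brighter genes, 1422 with the covariate, 627 with only the groups compared and 578 with the 2-fold minimum, against 1061. In the genotype difference 1 passed without both arrays, where 604 of all genes passed, against 4 in the main fit. Leaving out single arrays gave 0 to 3 in the WT response, and 0 to 1 between untreated genotypes and after SRBC. The replicate number as a block gave 3 in the WT response, 1 between untreated genotypes and 2 after SRBC, but the numbers share nothing stated in the labels: of 13 same-numbered pairs 4 had deviations correlated above 0.1 (r from -0.17 to 0.38), and 6 of 10 arrays correlated best with their own number.

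Signs turned in the Notch2-11cKO response of Il10 with array weights (-0.29), the replicate block (-0.63), the covariate (-2.84) and without both arrays (-1.03), and in the WT response of Il18 with weights (0.068) and without both arrays (0.15). Without both arrays the difference after SRBC was -0.36 for Il1a, -0.10 for Il1rn and -0.27 for Tgfb1. The covariate gave responses of -0.48 (Il1a), -0.29 (Il1b) and -1.58 (Il1rn) in Notch2-11cKO and -1.60 (Il1a) and -2.14 (Il1rn) in WT, and genotype differences of 1.12 (Il1a), 0.57 (Il1rn) and 0.41 (Tnf); 16 added units gave 0.25 for Il1a. Single arrays moved the Notch2-11cKO response between -1.03 and 0.79 for Il10 and -0.50 and 0.083 for Tgfb1, the WT response between -0.46 and 0.32 for Il18, the untreated difference between -0.14 and 0.65 for Il18 and -0.26 and 0.0043 for Il1b, the difference after SRBC between -0.0045 and 0.59 for Tgfb1, and the genotype difference between -1.53 and 0.074 for Il1a and -0.29 and 0.13 for Tnf. The cause was not tested. Over all genes the counts ranged from 2 to 398 around 61 in the Notch2-11cKO response, 60 to 2300 around 756 in the WT response, 418 to 1996 around 1019 between untreated genotypes, 578 to 2364 around 1061 after SRBC and 0 to 604 around 4 in the genotype difference. With 2 or 3 arrays a group, the SE of Il1a, Il1rn and Il10 lay between 0.57 and 1.01 in the pairwise comparisons.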
